A study of Mus musculus with 29 samples.

Results

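Imprinted genes are expressed mainly from the copy inherited from 1 parent, and 10 of them that lie outside the Meg3 (Dlk1-Dio3) locus were followed through mouse lung tumours: H19, Igf2, Igf2r, Airn, Cdkn1c, Kcnq1ot1, Peg3, Plagl1, Grb10 and Mest. The platform annotation assigns 30 of the 45101 probe sets on the array to these genes, and all 30 were taken. Of these, 21 passed a filter on low signals (above the 40th percentile of their own array in at least 6 arrays), and each of the 10 genes kept at least 1. The only probe set for H19 is annotated to H19 and to Mir675, the microRNA processed from the H19 transcript, and 1 probe set is annotated to both Igf2r and Airn, so the named pairs cannot be told apart on those probe sets. The study compared tumours driven by tetracycline-controlled transgenes, and its title concerns the return of tumours once the oncogene is switched off. The 8 TI-K primary tumours carried CCSP-rtTA, which places the tetracycline transactivator under an airway club cell promoter, and TRE-KrasV12. The 14 TI-KM primary tumours and the 6 TI-KM recurrences carried TRE-Mad2 in addition, a transgene for a spindle checkpoint protein, and the 1 normal lung came from a mouse with CCSP-rtTA alone. Every sample was of a mixed 129/Bl6 background, CCSP-rtTA was shared by all groups, and the labels call the tumours adenocarcinoma or adenoma; ages, times and doxycycline state are not in the labels. The titles of TI-KM primary tumours 1 and 2 both carry the number 76, so these may be tumours of a single mouse. Nothing in the labels says that the other samples came from separate animals, so p-values measure the spread between samples.

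Imprinting rests on DNA methylation set differently in sperm and egg at control regions, and kept through cell division. In many clusters the control region is the promoter of a long antisense RNA, as for Airn and Kcnq1ot1, which are made from the paternal copy and silence protein-coding neighbours on it. Many imprinted genes set fetal growth: Igf2 is a growth factor, Igf2r carries it to the lysosome, Cdkn1c blocks cyclin-dependent kinases and Grb10 dampens insulin and IGF receptor signals, and several are turned down in lung after birth. Altered dosage of Igf2, H19 and Cdkn1c is known from growth disorders and tumours. An array of this kind measures total RNA and cannot tell the parental copies apart.

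In the RefSeq table of the GRCm38.p6 mouse genome, the H19 gene spans chr7:142575530-142578146 and Igf2 lies at chr7:142650768-142666816. Kcnq1ot1 (chr7:143213111-143296547) and Cdkn1c (chr7:143458339-143461059) lie further along, and Peg3 (chr7:6703892-6730462) is on the same chromosome. Airn (chr17:12741311-12859884, plus strand) starts inside the Igf2r gene (chr17:12682406-12769706, minus strand). Mest is at chr6:30733506-30748466, Plagl1 at chr10:13090832-13131694 and Grb10 at chr11:11930499-12037428. Promoter sequences (250 bases before to 50 after a start) were matched for 8 of the 10 genes, 14 promoters in all. Those of Airn, Kcnq1ot1 and Mest are shown because only these member genes were called in the main group comparisons. Each CpG, the dinucleotide that carries the methyl mark, is in capitals. Mature miR-675 is shown with its seed (bases 2 to 8) in capitals, because it shares the H19 probe set.
Airn promoter, chr17:12741061-12741360, plus strand: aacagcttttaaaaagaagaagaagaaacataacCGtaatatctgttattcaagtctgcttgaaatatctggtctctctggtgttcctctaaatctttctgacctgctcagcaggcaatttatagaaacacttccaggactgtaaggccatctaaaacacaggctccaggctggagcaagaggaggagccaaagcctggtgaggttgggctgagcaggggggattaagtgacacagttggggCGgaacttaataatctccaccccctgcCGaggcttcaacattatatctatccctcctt
Kcnq1ot1 promoter, chr7:143296498-143296797, minus strand: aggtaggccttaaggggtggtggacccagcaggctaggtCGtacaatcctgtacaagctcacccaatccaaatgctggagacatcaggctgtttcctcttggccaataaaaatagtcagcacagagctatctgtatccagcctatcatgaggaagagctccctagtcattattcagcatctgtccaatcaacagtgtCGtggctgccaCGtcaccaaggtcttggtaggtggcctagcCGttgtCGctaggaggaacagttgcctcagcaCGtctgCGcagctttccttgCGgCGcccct
Mest promoter, chr6:30737800-30738099, plus strand: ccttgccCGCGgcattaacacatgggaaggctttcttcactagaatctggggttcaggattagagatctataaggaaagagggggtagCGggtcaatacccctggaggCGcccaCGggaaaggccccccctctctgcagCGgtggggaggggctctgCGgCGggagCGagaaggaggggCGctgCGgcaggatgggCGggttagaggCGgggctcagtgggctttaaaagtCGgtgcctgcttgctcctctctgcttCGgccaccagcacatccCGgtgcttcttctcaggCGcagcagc
miR-675-5p, chr7:142577112-142577133, minus strand: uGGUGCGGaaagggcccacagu
miR-675-3p, chr7:142577078-142577099, minus strand: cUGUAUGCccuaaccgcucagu

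The 3 promoters shown differ in composition. The Airn window holds 3 CpG and 45.7% G and C, the Kcnq1ot1 window 9 CpG and 53.3%, and the Mest window 17 CpG and 62.7%. Among 32851 promoters of the same length the median is 7 CpG, and 23.3% have fewer CpG than Airn, 54.2% fewer than Kcnq1ot1 and 68.6% fewer than this Mest promoter. CCAAT, the box bound by NF-Y, was searched on both strands and occurs 3 times in the Kcnq1ot1 window and not in the Airn or Mest window; 37.4% of all promoters hold at least 1 and 3.37% at least 3. TGCCGC, the core motif of the imprint-protecting protein ZFP57 on either strand, occurs 2 times in the Mest window and not in the other two, against 11.6% of all promoters with at least 1 and 1.53% with at least 2. These are matches of letters, not measured binding sites. Mest has other windows that are not shown. That at chr6:30733256-30733555 holds 8 CpG, with fewer in 51.4% of all promoters, and no TGCCGC. That at chr6:30737803-30738102 holds 17 CpG and 2 TGCCGC. The contrast of Mest with the other genes thus depends on the window.

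Arrays were split here into sets that cut across and partly along the groups; the labels name none of them a batch. TI-KM primaries 1 to 6 and recurrences 1 to 4 had an 18S ribosomal control signal above 12000 (12665 to 24001; normal lung 12569), TI-K primaries 1 to 5 have title numbers above 6000, and 13 arrays remained (3 TI-K, 8 TI-KM primaries and 2 recurrences). The high-numbered set holds TI-K primaries only, and its 18S signals (7616 to 8523) lay within those of the remaining arrays (5939 to 10857), which include TI-K primaries 6 to 8. The log2 3′/5′ ratio of control transcripts, a sign of RNA integrity, averaged 2.16 in both primary groups (SD 0.412, n = 8, and 0.673, n = 14) and 1.32 in recurrences (SD 0.451, n = 6). Recurrence 1 stood apart, with summed lymphocyte markers of 17247 against at most 2311 in the other 27 tumours and summed proliferation markers of 20077 against at most 10605. TI-K primary 3 carried signal of both Xist and Y-linked genes. Markers of alveolar type II cells, the lineage of many such tumours, summed to 80044 to 195219 in tumours (9 of 10 markers measured) and 60259 in normal lung. Not every marker was lower in normal lung. Sftpc (28262 against 10460 to 31058 in tumours) and Lpcat1 (9893 against 6963 to 21110) lay within the tumours' range, and the other measured markers below it. In bulk tissue, fewer cells of a type and less RNA per cell cannot be told apart.

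Between the tumour groups, the only member genes called were the 2 long antisense RNAs, in 1 of the 3 comparisons. Airn was 3.21-fold and Kcnq1ot1 2.04-fold lower in recurrences than in TI-K primaries, and these were the 2 of 10 genes called (limma, Benjamini-Hochberg adjusted p below 0.05 over 14603 genes). Over all genes, 18.8% were called in this comparison, 12.1% higher and 6.63% lower. The share of members called was thus near the 18.8% of all genes. The uncalled Peg3 differed there by -1.01 on the log2 scale, near the -1.03 of Kcnq1ot1. No member gene was called between TI-KM and TI-K primaries, where 7.98% of all genes were (5.5% higher and 2.49% lower), and limma gave 3 of 10 an unadjusted p below 0.05 against 27.8% of all genes. None was called between recurrences and TI-KM primaries, where 0.26% of all genes were (0.0411% higher and 0.219% lower), with 1 of 10 at an unadjusted p below 0.05 against 12.4%. The median log2 differences of the 10 genes were -0.22, -0.05 and -0.18 for TI-KM against TI-K, recurrence against TI-KM and recurrence against TI-K, beside 0.08, 0.04 and 0.11 over all genes.

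**Figure D1:**
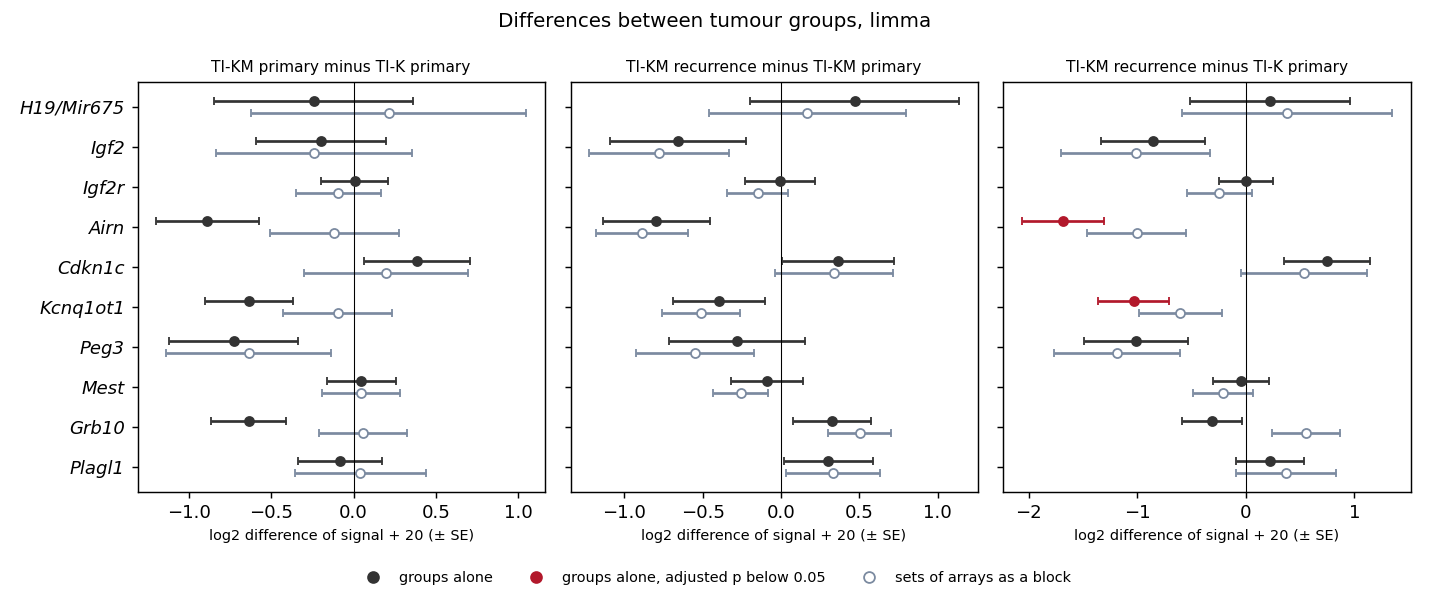
Log2 differences of signal + 20 (horizontal axis, ± SE, from limma) for the 10 genes in the 3 comparisons between tumour groups, without (filled) and with (open) the sets of arrays as a block. Airn and Kcnq1ot1 in recurrences against TI-K primaries, in red, are the only called values, and with the block no value is called.

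Airn is the paternally made antisense RNA that silences Igf2r on the same chromosome. Its probe set with the highest mean level (1451634_at) gave signals of 84.0 to 1299 in TI-K primaries with a median of 442, of 137 to 697 in TI-KM primaries with a median of 183, and of 104 to 141 in recurrences with a median of 110.2. The normal lung gave 491. All 6 recurrences lay at the low end, 5 of them below every TI-KM primary, while TI-K primary 8, at 84.0, was lower than any recurrence, so the groups overlapped. On the log2(signal + 20) scale, on which changes of weak genes are understated, the recurrences were lower than TI-K primaries by -1.68 ± 0.38 (SE; limma adjusted p = 0.00467). TI-KM primaries differed from TI-K primaries by -0.89 ± 0.31 (limma adjusted p = 0.0682) and recurrences from TI-KM primaries by -0.79 ± 0.34 (limma adjusted p = 0.342), and neither passed.

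Kcnq1ot1 is the paternal antisense RNA of the Cdkn1c cluster, read through the Kcnq1 gene. Its leading probe set (1458161_at) gave 144 to 684 in TI-K primaries with a median of 458, 94.9 to 696 in TI-KM primaries with a median of 249, and 138 to 245 in recurrences with a median of 174, against 173 in normal lung. TI-K primaries 1 to 5, at 412 to 684, lay above all 6 recurrences, and TI-K primary 8 fell among them. Recurrences were lower than TI-K primaries by -1.03 ± 0.33 (SE; limma adjusted p = 0.0276). The other differences were -0.64 ± 0.27 for TI-KM against TI-K primaries (limma adjusted p = 0.117) and -0.40 ± 0.29 for recurrences against TI-KM primaries (limma adjusted p = 0.599).

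The other probe sets of both RNAs mostly ran the same way, though probe sets of 1 gene are not replicates. Over all 21 member probe sets, 4 were called lower and none higher in TI-KM against TI-K primaries, where 8.33% of all probe sets were called lower, and 6 were lower and none higher in recurrences against TI-K primaries, where 13.3% were. None was called between recurrences and TI-KM primaries, where 0.442% of all probe sets were, and limma gave 4 of 21 an unadjusted p below 0.05 against 13.5% of all probe sets. All 10 calls belonged to Airn or Kcnq1ot1. The count of 4 fell to 1 when any of TI-K primaries 1 to 5 was left out singly. For Airn, 1456139_at had medians of 405 in TI-K primaries, 101 in TI-KM primaries and 34.0 in recurrences, a log2 difference of -2.37 ± 0.48 between recurrences and TI-K primaries (limma adjusted p = 0.000686). For Kcnq1ot1, 1459443_at had medians of 328, 62.8 and 16.2. Each recurrence, at 7.31 to 65.9, was below every TI-K primary, at 75.8 to 537, as were 3.24% of all probe sets, and the log2 difference was -2.68 ± 0.50 (limma adjusted p = 0.000351). Of the 6 recurrence signals, 4 were below the offset of 20, so the size of this difference depends on the offset. Airn 1436627_at varied less, with medians of 151, 139 and 107 and a difference of -0.29 ± 0.26 (limma adjusted p = 0.417). Kcnq1ot1 1442029_at gave -1.13 ± 0.52, of the same direction without passing (limma adjusted p = 0.102). The probe set annotated to both Igf2r and Airn, 1440979_at, showed no such drop. Recurrences differed on it from TI-K primaries by 0.01 ± 0.29 (limma adjusted p = 0.976) and from TI-KM primaries by 0.17 ± 0.26 (limma adjusted p = 0.802).

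**Figure D2:**
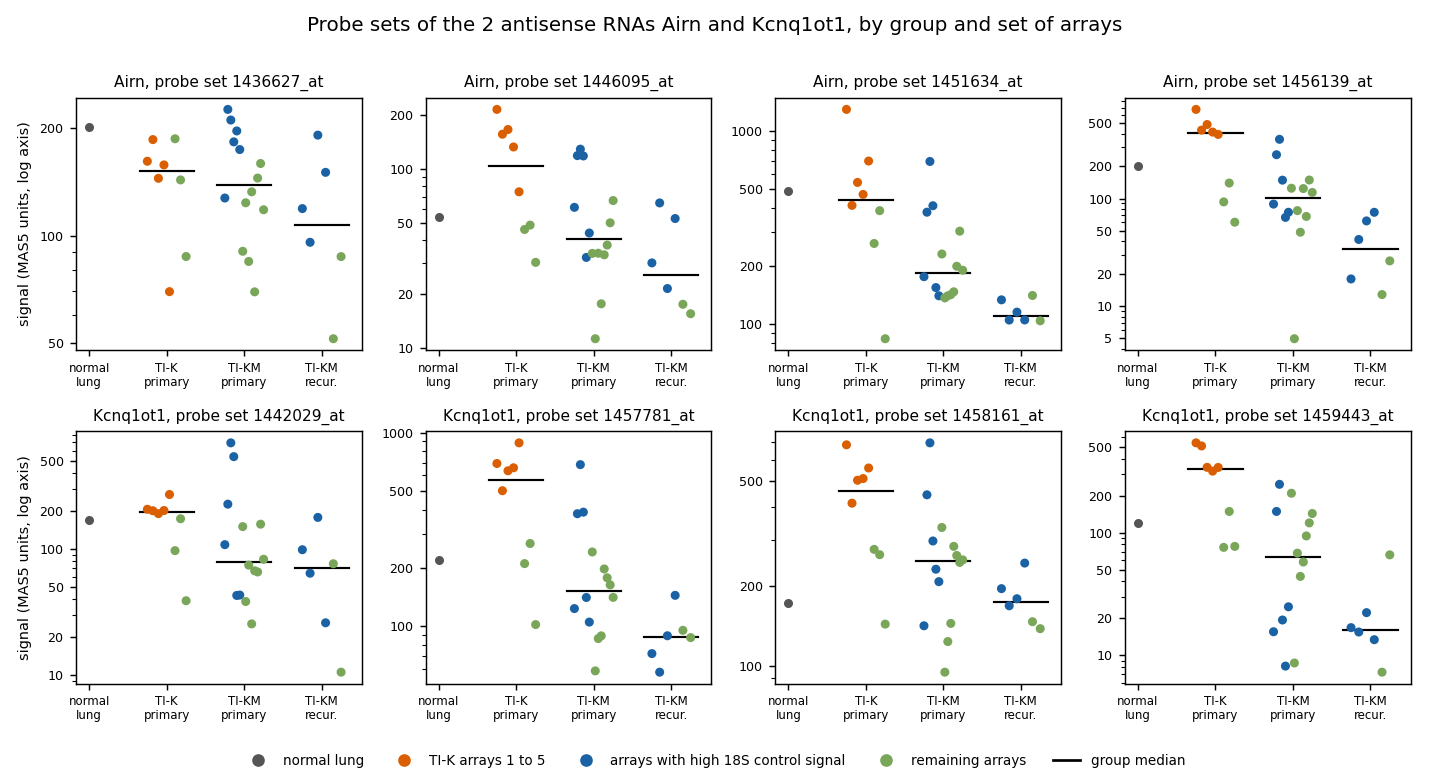
Signals of the 4 probe sets each of Airn (top) and Kcnq1ot1 (bottom) that are annotated to that gene alone and passed the filter, in 29 arrays by group on log axes, coloured by set of arrays, with lines at group medians. TI-K arrays 1 to 5 lie high in most panels, but above all TI-KM primaries only for 1456139_at and 1459443_at. The 3 remaining TI-K arrays overlap the TI-KM primaries.

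Both RNAs followed the sets of arrays inside the TI-K group. Airn signals were 413 to 1299 in TI-K primaries 1 to 5 and 84.0, 262 and 387 in the 3 others, a log2 difference of 1.502 ± 0.44 (limma adjusted p = 0.0428). Kcnq1ot1 signals were 412 to 684 against 144, 263 and 276, a difference of 1.19 ± 0.23 (limma adjusted p = 0.00873). In that split 15.9% of all genes were called, and these were the 2 of 10 members called. The high-numbered set holds TI-K primaries only, so in the block model the TI-K level rests on TI-K primaries 6 to 8. With the sets as a block, recurrences differed from TI-K primaries by -1.003 ± 0.46 for Airn (limma adjusted p = 0.408) and by -0.61 ± 0.38 for Kcnq1ot1 (limma adjusted p = 0.582), so both calls were lost, and the block left 0.0959% of all genes called in this comparison and 0.685% between recurrences and TI-KM primaries. Within the 13 remaining arrays the differences were -0.69 ± 0.46 and -0.56 ± 0.44, neither of them called. The TI-KM against TI-K difference shrank to -0.12 ± 0.39 for Airn and -0.10 ± 0.33 for Kcnq1ot1 with the block, in which 0 of 14603 genes (0%) were called by limma and 709 had an unadjusted p below 0.05. The uncalled difference of Airn between recurrences and TI-KM primaries was -0.89 ± 0.30 with the block (limma adjusted p = 0.143), -1.14 ± 0.40 within the high-18S arrays (limma adjusted p = 0.415) and -0.50 ± 0.40 within the remaining arrays (limma adjusted p = 0.828). With the 3′/5′ ratio as a covariate it was -0.37 ± 0.38 (limma adjusted p = 0.869), the smallest size over the alternatives. With the block, probe set 1456139_at of Airn was called lower in recurrences than in TI-KM primaries (-1.28 ± 0.33, limma adjusted p = 0.0416), 1 of 21 member probe sets, where 1.56% of all probe sets were called lower.

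The 3′/5′ ratio was lower in recurrences, at a mean of 1.32, and alike in both primary groups, at 2.16. Its part in these differences was not tested. With that ratio as a covariate, Airn still passed in recurrences against TI-K primaries (-1.26, limma adjusted p = 0.0468) and Kcnq1ot1 did not (-0.72, limma adjusted p = 0.169). Without recurrence 1 the values were -1.72 for Airn (limma adjusted p = 0.00811) and -1.06 for Kcnq1ot1 (limma adjusted p = 0.0413), and without TI-K primary 3 they were -1.63 (limma adjusted p = 0.0105) and -0.98 (limma adjusted p = 0.0496). The call of Kcnq1ot1 was lost without TI-K primary 1, 4 or 5 or recurrence 2, with adjusted p-values from 0.0506 to 0.0604.

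Igf2r, the receptor that removes IGF2 and that Airn silences, stayed near 1 level. Its leading probe set gave medians of 1112 in TI-K primaries (678 to 1527), 1045 in TI-KM primaries (589 to 2015) and 1083 in recurrences (712 to 1508), and 919 in normal lung. The 4 groups overlapped throughout. The differences were 0.01 ± 0.20, -0.00 ± 0.22 and 0.00 ± 0.25 for TI-KM against TI-K, recurrence against TI-KM and recurrence against TI-K, with 95% intervals of -0.41 to 0.42, -0.46 to 0.45 and -0.51 to 0.51 on the log2 scale. A second Igf2r probe set gave 0.35 ± 0.21 in recurrences against TI-K primaries (limma adjusted p = 0.212). Across arrays, Igf2r and Airn correlated at r = 0.60 in the 14 TI-KM primaries (Spearman rho 0.52; permutation p = 0.0269 and 0.0596, adjusted over 9 tests 0.242 and 0.537). Without the 2 arrays farthest from the Igf2r median r was 0.23, so the relation rests on them, and within the high-18S and remaining TI-KM arrays it was 0.46 and 0.54 (exact permutation p = 0.342 and 0.154), and 0.84 and 0.21 without the 2 farthest arrays of each. In TI-K primaries and recurrences r was -0.13 and -0.27 (rho -0.12 and -0.086; exact permutation p = 0.798 and 0.592 for r), and -0.29 and -0.87 without the 2 farthest arrays.

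H19, a maternally expressed RNA that shares enhancers with Igf2, and Igf2, the paternally expressed growth factor, were each high in a few tumours rather than in a group. The H19/Mir675 probe set gave 13.6 to 4645 in TI-K primaries with a median of 72.5, 7.68 to 1015 in TI-KM primaries with a median of 85.9, and 37.7 to 561 in recurrences with a median of 134, against 89.0 in normal lung. Igf2 gave 168 to 3450 with a median of 258, 139 to 1087 with a median of 293, and 55.5 to 444 with a median of 221, against 523 in normal lung. TI-K primary 3 held the highest value of both (4645 and 3450), and TI-KM primary 3 the second highest of both (1015 and 1087). Recurrence 2 had the third highest H19/Mir675 signal, 561, beside an Igf2 signal of 444.

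No group difference of either gene passed. Recurrences differed from TI-K primaries by 0.23 ± 0.74 for H19/Mir675 (limma adjusted p = 0.85) and by -0.85 ± 0.48 for Igf2 (limma adjusted p = 0.202). The 95% interval for H19/Mir675, -1.29 to 1.75, spans large changes in either direction. Without TI-K primary 3 the difference of TI-KM from TI-K primaries turned from -0.24 to 0.49 for H19/Mir675 and from -0.20 to 0.26 for Igf2, uncalled in every case. The 2 tumours with both genes high had summed fibroblast markers of 25656 (TI-K primary 3) and 21667 (TI-KM primary 3). Both sums were above their group medians, 20752 in TI-K and 13326 in TI-KM primaries. They lay in the upper part of the range of the other tumours (6019 to 29128, 10 of 10 markers measured). The part of these cells was not tested.

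**Figure D3:**
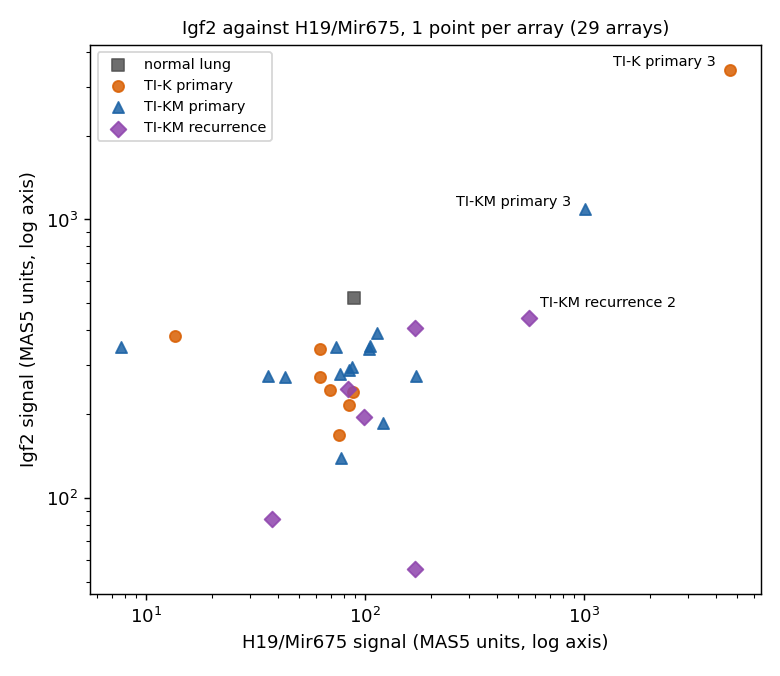
Igf2 signal (vertical) against H19/Mir675 signal (horizontal), both on log axes, with 1 point per array for 29 arrays. TI-K primary 3 (4645 and 3450) and TI-KM primary 3 (1015 and 1087) stand at the upper right, apart from the other arrays.

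Over the 28 tumours, with group means removed, H19/Mir675 and Igf2 correlated at r = 0.74, and each ranked second among the 14602 other genes for likeness to its partner; these points share the signals of 2 tumours. Within groups r was 0.89 in TI-K primaries (Spearman rho -0.21; exact permutation p = 0.246 and 0.619), 0.61 in TI-KM primaries (rho 0.26; permutation p = 0.0907 and 0.379) and 0.55 in recurrences (rho 0.37; exact permutation p = 0.242 and 0.497), with no p under 0.408 after adjustment over 9 tests. Leaving out the 2 arrays farthest from the H19/Mir675 median took r to -0.59, 0.08 and -0.25, so the relation within whole groups rests on those arrays. In the TI-KM primaries r was 0.93 within the 6 high-18S arrays and -0.37 within the 8 remaining arrays (exact permutation p = 0.147 and 0.36). Without the 2 farthest arrays of each set these were 0.99, over 4 arrays, and -0.13.

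Cdkn1c, which encodes the p57 inhibitor of cyclin-dependent kinases and lies in the cluster that Kcnq1ot1 silences, was also high in single tumours. Signals were 202 to 425 in TI-K primaries with a median of 279, 167 to 2379 in TI-KM primaries with a median of 325, and 222 to 1526 in recurrences with a median of 440.2, against 1136 in normal lung. TI-KM primary 4, at 2379, and recurrence 2, at 1526, were the only tumours above the normal lung. The difference of recurrences from TI-K primaries was 0.75 ± 0.39 (SE; limma adjusted p = 0.169), and that of TI-KM from TI-K primaries 0.39 ± 0.32 (limma adjusted p = 0.448). Cdkn1c and Kcnq1ot1 correlated at r = -0.48, 0.11 and -0.30 in the 3 tumour groups (rho -0.12, 0.11 and -0.60; permutation tests, exact for the groups of 8 and 6, adjusted p at least 0.443), and at 0.10, -0.18 and -0.69 without the 2 arrays farthest from the Cdkn1c median. Within TI-KM primaries r was 0.30 in the high-18S arrays and -0.73 in the remaining arrays (exact permutation p = 0.544 and 0.0523).

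Grb10, an adaptor that restrains insulin and IGF receptor signalling, was 1.55-fold lower in TI-KM than in TI-K primaries, a difference that missed the threshold (-0.64 ± 0.23, limma adjusted p = 0.0716). Its leading probe set gave 634 to 1666 in TI-K primaries with a median of 1204, 238 to 1292 in TI-KM primaries with a median of 767, and 487 to 1733 in recurrences with a median of 997, against 1717 in normal lung. The 3 lowest TI-KM values were in high-18S arrays, whose 6 signals reached 781, and this set was lower than the remaining TI-KM primaries by -0.73 ± 0.23 (limma adjusted p = 0.0168), in a split that called 42.3% of all genes. With the sets as a block the TI-KM against TI-K difference was 0.05 ± 0.27, of the opposite sign. A weaker probe set of Grb10 gave medians of 64.5, 69.7 and 51.0 and a TI-KM against TI-K difference of -0.09 ± 0.25 (limma adjusted p = 0.82).

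Plagl1, a zinc finger transcription factor of an imprinted growth gene network, had probe sets of very unequal signal. Its _x_at probe set, of a type whose probes may match other transcripts, gave 2610 to 5947 in TI-K primaries with a median of 3765, 1755 to 7681 in TI-KM primaries with a median of 3641, and 1309 to 6396 in recurrences with a median of 5978, against 4153 in normal lung. The other probe set that passed stayed at 12.3 to 159 in all arrays, and the third did not pass. Recurrences differed from TI-KM primaries by 0.30 ± 0.28 on the _x_at probe set (limma adjusted p = 0.679) and by -0.27 ± 0.34 on the other (limma adjusted p = 0.755), so the direction depends on the probe set.

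Peg3, a paternally expressed zinc finger protein linked to growth restraint, gave 157 to 1055 in TI-K primaries with a median of 459, 85.01 to 1414 in TI-KM primaries with a median of 260.4, and 118 to 387 in recurrences with a median of 244, against 862 in normal lung. Recurrences differed from TI-K primaries by -1.01 ± 0.48 (limma adjusted p = 0.129) and by -1.19 ± 0.58 with the block (limma adjusted p = 0.452), and the groups overlapped. Within the TI-KM primaries the high-18S arrays were higher than the remaining ones by 1.38 ± 0.40 (limma adjusted p = 0.00993). A weaker probe set, 1417355_at, gave 32.8 to 333 in TI-K primaries, 9.02 to 295 in TI-KM primaries and 16.01 to 173 in recurrences. All were below the 345 of normal lung, and 12.4% of all genes, by their leading probe sets, were likewise highest in the normal array. For 1417355_at this is therefore no mark of its own. The differences of 1417355_at from normal lung were -1.36 ± 1.07, -2.42 ± 1.05 and -2.22 ± 1.09 in the same order (limma adjusted p = 0.548, 0.157 and 0.207), and none passed. Of the 5 Peg3 probe sets, 3 did not pass the filter and peaked at 8.40, 13.7 and 20.04 in any array.

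Mest, a paternally expressed enzyme of the hydrolase fold that hosts miR-335 and is active in growing mesenchyme and fat, was the 1 member gene called against normal lung. Signals were 536 in the normal lung, 92.1 to 265 in TI-K primaries with a median of 149, 84.1 to 288 in TI-KM primaries with a median of 155, and 71.9 to 218 in recurrences with a median of 159. The normal array was above all 28 tumours, as it was for 12.4% of all genes. Mest was lower than in normal lung by -1.72 ± 0.50 in TI-K primaries (limma adjusted p = 0.0193), -1.67 ± 0.49 in TI-KM primaries (limma adjusted p = 0.0188) and -1.76 ± 0.51 in recurrences (limma adjusted p = 0.0209). It was the only member gene of 10 called in each, no larger a share than the 13.5%, 14.9% and 12.6% of all genes called, of which 6.79%, 7.16% and 6.09% of all genes were lower. These comparisons share 1 normal array, whose own spread was taken from the tumours. The 18S signal of that array, 12569, was also above 12000. Among TI-KM primaries Mest was higher in high-18S than in remaining arrays by 0.69 ± 0.20 (limma adjusted p = 0.0098). Tumour groups differed from each other by at most 0.09 in size on the log2 scale (limma adjusted p at least 0.895).

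**Figure D4:**
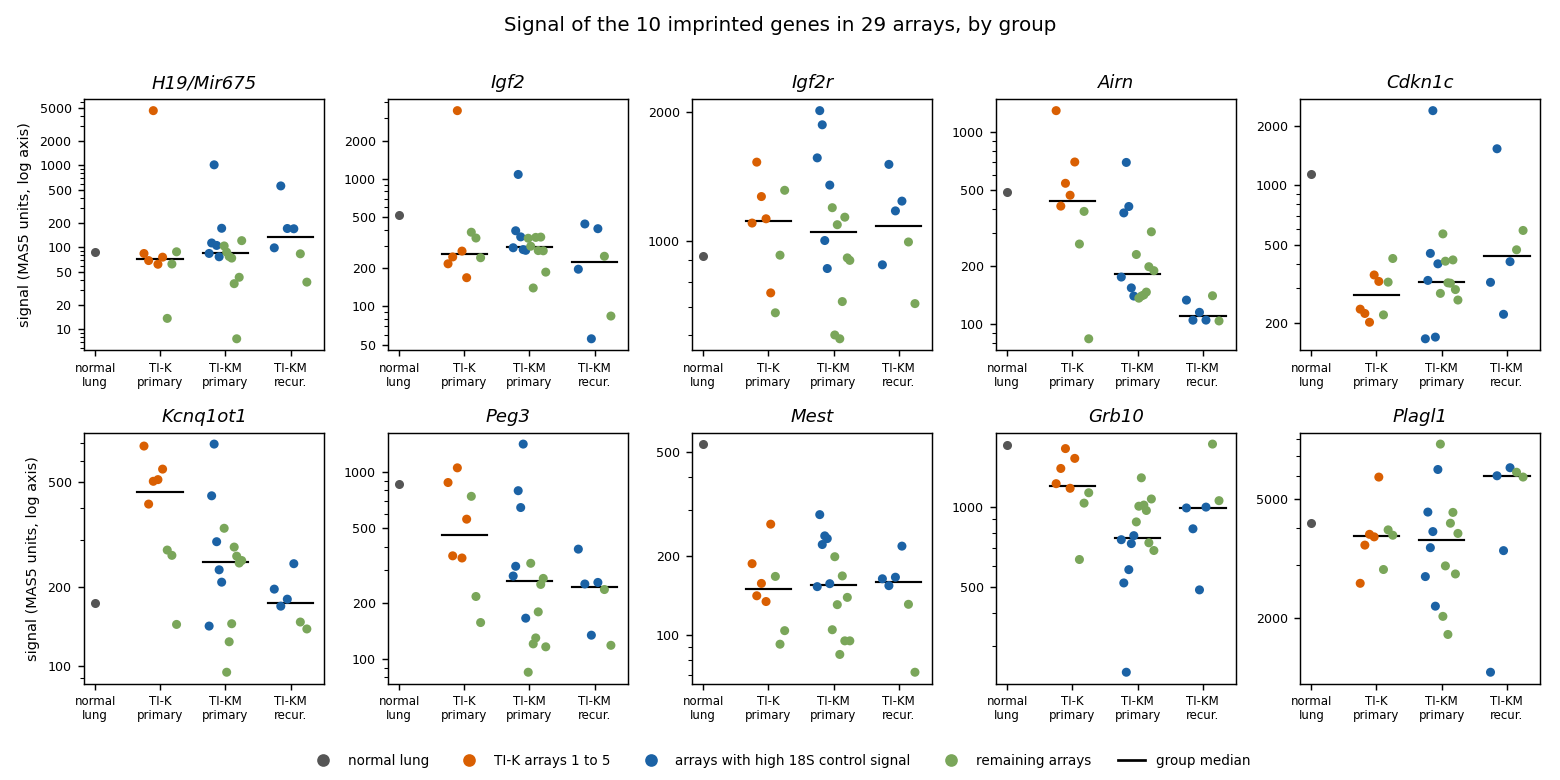
Signal of the leading probe set of each of the 10 genes on log axes, with 1 point per array in 4 groups, coloured by set of arrays, and lines at group medians. Mest in normal lung (536) lies above all tumours, and single tumours stand high for H19/Mir675, Igf2 and Cdkn1c.

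Markers of other cell types in the normal lung sample were higher than in the tumours for some lists and lower or alike for others. Its adipocyte markers summed to 67951 against 1379 to 10432 in tumours (4 of 10 measured), with Cidea at 17182 against 2.06 to 265, Fabp4 at 27121 against 1204 to 9971, Thrsp at 23610 against 37.7 to 487, and Retn at 37.2, within the tumours' 5.44 to 323. Its fibroblast markers summed to 31445 against 6019 to 29128, and smooth muscle and pericyte markers to 33919 against 3332 to 22983 (9 of 10 measured). Of the 10 fibroblast markers, Pdgfra, Dcn and Lum were above all tumours and the other 7 lay within their range. Endothelial markers summed to 24044 against 3599 to 12963 (10 of 10 measured). Macrophage markers summed to 24389, below all tumours at 34237 to 68893 (10 of 10 measured), and striated muscle markers to 2260, near the low end of the tumours' 824 to 17191 (7 of 10 measured). Most of the striated muscle sum in nearly all tumours was Myh7 (560 in normal lung against 431 to 16778). Actn2, at 294, was above all tumours (at most 124), and the other striated muscle markers lay within their range. The median log2 difference of that list from normal lung was -1.20 in TI-K primaries, -1.25 in TI-KM primaries and -1.10 in recurrences. Sums for mesothelial, club, lymphocyte and erythroid markers lay within the range of the tumours, though some single markers did not. Of mesothelial markers, Krt19 (833) was below all tumours, and Lrrn4 (640) and Gpm6a (4861) were above them. Of club markers, Scgb3a1 (150) was below all tumours and Scgb3a2 (23220) above them. Of erythroid markers, Alas2 (4678) was above all tumours (at most 566). The other markers of these 4 lists lay within the tumours' range. The part of these cell types in the Mest difference was not tested. Differences from normal lung that did not pass included -1.95 ± 0.77 for Cdkn1c in TI-K primaries (limma adjusted p = 0.0947), -1.16 ± 0.53 for Grb10 in TI-KM primaries (limma adjusted p = 0.153) and -1.90 ± 0.76 for Airn in recurrences (limma adjusted p = 0.101).

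Within the TI-KM primaries, 4 of 10 members were called in the comparison of high-18S arrays with the others, a share near the 42.3% of all genes. Peg3, Mest (0.69 ± 0.20, limma adjusted p = 0.0098) and Igf2r (0.66 ± 0.22, limma adjusted p = 0.0215) were higher in the high-18S arrays and Grb10 lower, and the signals of all 4 overlapped between the sets.

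Genes that act with the members were counted in lists. Of 21 measured genes that set or keep imprints, 2 were lower and none higher in TI-KM against TI-K primaries, 1 lower in recurrences against TI-KM primaries, and 6 lower and 1 higher in recurrences against TI-K primaries. Over all genes, 2.49%, 0.219% and 6.63% were lower in these comparisons, and 12.1% were higher in the last. Tet2, an enzyme that starts the removal of DNA methylation, was lower in all 3, by -1.28 ± 0.30 (limma adjusted p = 0.0132), -1.72 ± 0.33 (limma adjusted p = 0.0227) and -3.00 ± 0.37 (limma adjusted p = 1.41e-05), comparisons that share samples. With the block the difference between recurrences and TI-KM primaries was -1.67 (limma adjusted p = 0.00589) and the other two did not pass. Zfp445, a zinc finger protein that protects imprints, was lower in recurrences than in TI-K primaries by -0.61 ± 0.14 (limma adjusted p = 0.00483), and Setdb1, a histone methyltransferase recruited with it, was lower in TI-KM than in TI-K primaries by -0.50 ± 0.13 (limma adjusted p = 0.0197); neither passed with the block. With the block none of the list was called in TI-KM or recurrences against TI-K primaries, and Tet2 alone in recurrences against TI-KM primaries. The median of the list was -0.20, 0.04 and -0.20 in the 3 comparisons, beside 0.08, 0.04 and 0.11 over all genes, and 0.0057, 0.0088 and -0.089 with the block.

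Of 21 measured genes of the IGF axis, none was called in TI-KM against TI-K primaries or in recurrences against TI-KM primaries, and 2 were higher in recurrences than in TI-K primaries. These were Igfbp6, a binding protein that prefers IGF2 (1.45 ± 0.36, limma adjusted p = 0.00772), and Igf2bp3, which binds Igf2 mRNA (1.01 ± 0.30, limma adjusted p = 0.02). Of 14 other cell cycle inhibitors, cyclins and kinases, Cdkn1b, the p27 relative of Cdkn1c, was higher in TI-KM than in TI-K primaries (0.92 ± 0.25, limma adjusted p = 0.0246), and Cdkn2c was higher in recurrences than in TI-K primaries (0.76 ± 0.26, limma adjusted p = 0.0426). These counts lie below the 7.98% and 18.8% of all genes called in TI-KM and in recurrences against TI-K primaries. None of these 4 passed with the block, in which Igfbp6 was at 0.99, Cdkn2c at 0.51, Igf2bp3 at 0.028 and Cdkn1b, turned in sign, at -0.17.

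Neighbours of the members in their clusters gave 1 of 19 called between TI-KM and TI-K primaries, none between recurrences and TI-KM primaries, and 3 higher and 1 lower in recurrences against TI-K primaries. Th, which lies near Igf2, was higher in TI-KM primaries (0.82 ± 0.26, limma adjusted p = 0.0494) and in recurrences (1.02 ± 0.32, limma adjusted p = 0.0266) than in TI-K primaries, and Cpa4, near Mest, was higher in recurrences than in TI-K primaries (1.24 ± 0.32, limma adjusted p = 0.011). Of 23 other imprinted genes, 2 were higher and 1 lower in recurrences against TI-K primaries and none was called in the other tumour comparisons. Beside the 7.98%, 0.26% and 18.8% of all genes called in the 3 comparisons, both lists were near or below the background. H13 was higher (0.92 ± 0.19, limma adjusted p = 0.00223) and Ppp1r9a lower (-1.56 ± 0.35, limma adjusted p = 0.00467). At the Dlk1-Dio3 locus, Meg3 was lower in recurrences than in TI-KM primaries by -3.12 ± 0.57 (limma adjusted p = 0.0138). In recurrences against TI-K primaries Meg3 was lower by -3.99 ± 0.64 (limma adjusted p = 0.000323; with the block -3.53, limma adjusted p = 0.0939) and Rian by -1.50 ± 0.49 (limma adjusted p = 0.033). With the block, Meg3 alone among these neighbours and other imprinted genes still passed in a tumour comparison, in recurrences against TI-KM primaries, at -3.28 (limma adjusted p = 0.0057).

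The 3 genes most like each member over the 28 tumours, by Pearson r of log2 values with group means removed, are given as a description; the arrays share their sets and array-wide effects. Kcnq1ot1 was followed most closely by Taf15 (r = 0.91), Gm4432 (0.90) and 2310067E19Rik (0.89), and Airn by Pds5a (0.87), Ttc14 (0.87) and Trim39 (0.86). Airn and Kcnq1ot1, which lie on different chromosomes, correlated at r = 0.83 with each other, at ranks 10 and 9 of each other's lists, and at 0.76 with set means also removed. The nearest to H19/Mir675 were Islr (0.75), Igf2 (0.74) and Ptprv (0.73), and to Igf2 were Adamts12 (0.78), H19/Mir675 (0.74) and Apcdd1 (0.73). Igf2r was nearest to Nfic (0.83), Atg9a (0.83) and Cdc42bpg (0.82), and Cdkn1c to Ppp1r7 (0.70), Gpt (0.69) and Edn3 (0.68). Peg3 was nearest to Cd40lg (0.78), Abcb1a (0.78) and Fap (0.77), and Mest to Bpifa2 (0.82), Gm29805 (0.82) and Rap1gap2 (0.79). Grb10 was nearest to Map3k20 (0.84), Lactb (0.83) and Ufsp2 (0.83), and Plagl1 to Rasd2 (0.80), Ctnnd1 (0.78) and Pard3 (0.77). Peg3 and Mest, both paternally expressed, correlated at r = 0.70, and at 0.53 with set means also removed.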

How the data were processed

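Each of 29 samples was run on its own Affymetrix array after 2 rounds of target amplification, per the labels. The deposited values are linear intensity signals of 45101 probe sets made with MAS5, per the submitters' processing notes, with no version stated. A 2% trimmed mean of 500.003 was found for all arrays, and no further scaling was applied. The number of arrays limits the precision.

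Probe sets were named from the platform annotation (34945 with 1 gene, 932 with several, 9160 with none). An offset of 20 was added before log2, which was computed here from the deposited signals. Probe sets above the 40th percentile of their array in at least 6 arrays were kept (31932), and the one with the highest mean log2 level led each of 14603 genes. All 29 arrays in 4 groups entered 1 limma model (version 3.58.1, R 4.3.3, data.table version 1.17.8; lmFit and eBayes with trend) with Benjamini-Hochberg adjustment over all genes and a threshold of 0.05; it was tested on simulated data. Correlations used scipy 1.17.1 with 100000 permutations, exact below 10 arrays, and figures matplotlib 3.10.9. The sets of arrays entered as a block over 28 tumours. Named genes are all members, up to 2 called genes of each list per tumour comparison with the smallest p, and the 3 genes most like each member. Members, lists, sets and named-gene rule were chosen with earlier results of these data known. The series text names the MOE430A 2.0 array. Alternatives covered offsets, scaling, filter, probe set choice, variance model, arrays used, covariates, sets and leaving out each array.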

Additional observations from a re-analysis of the deposited data

Results flagged for a closer look

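Among 20 groups of 6 or 8 arrays checked for a value standing far from its neighbours, 5 did so. The rule used assumes normally spread values and was applied to signals without logs, and some flags share a tumour. The number expected by chance is therefore not known. In TI-K primaries, H19/Mir675 reached 4645 in tumour 3 against 88.3 in the next, and Igf2 reached 3450 in the same tumour against 382 in the next. In recurrences, H19/Mir675 reached 561 in tumour 2 against 169.8 in the next, and Cdkn1c 1526 in the same tumour against 589. Plagl1 reached 5947 in TI-K primary 5 against 3949.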

How the results depend on the processing

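No paired analysis was possible because the labels give the samples no shared replicate numbers; no replicate block was fitted. With array medians made equal, the median log2 difference of all genes went from 0.11 to 0.011 in recurrences against TI-K primaries and from 0.00011 to 0.13 in TI-K primaries against normal lung.

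Member genes called between TI-KM and TI-K primaries, 0, became 2 with a common median (Airn and Kcnq1ot1) and 1 with the 3'/5' ratio as a covariate (Grb10), and 0 to 2 when single arrays were left out: 1 without TI-KM primary 3 or 9 or TI-K primary 6, and 2 without TI-K primary 8. Recurrences against TI-K primaries, 2, became 1 with the 3'/5' ratio, 0 with the sets as a block, 0 in the remaining arrays alone, and 1 to 2 when single arrays were left out. For normal lung, the TI-K count of 1 became 2 with only the groups compared and 2 with the remaining arrays. The TI-KM count of 1 became 2 with the 3'/5' ratio and 3 with the remaining arrays, and 1 to 2 when single arrays were left out (2 without TI-KM primary 4). The recurrence count of 1 became 0 with only the groups compared, 0 with the 3'/5' ratio and 3 with the remaining arrays. Called member probe sets were 4, 0 and 6 in TI-KM against TI-K, recurrence against TI-KM and recurrence against TI-K. They became 0, 1 and 0 with the block and 0, 0 and 0 in the remaining arrays. When single arrays were left out the ranges were 1 to 6, 0 to 0 and 5 to 7. The 1 arose when any of TI-K primaries 1 to 5 was left out singly. These probe set settings were chosen after seeing the data. The cause was not tested.

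Calls over all genes changed by more than 1.5 times as follows. TI-KM against TI-K primaries, 1166, became 1858 with quantile normalization, 765 with title number 76 averaged, and 0 with the block and in the remaining arrays (709 and 1028 at an unadjusted limma p below 0.05). Recurrence against TI-KM, 38, became 72 (quantile), 10 (only the groups compared), 0 (3'/5'), 100 (block), 12 (remaining) and 1 (high-18S arrays). Recurrence against TI-K, 2742, became 1542 (3'/5'), 14 (block) and 19 (remaining). Against normal lung, TI-K, 1976, became 1198 (common median), 3107 (only the groups compared) and 3483 (remaining); TI-KM, 2177, became 1395 (common median) and 3839 (remaining); and recurrences, 1833, became 1079 (common median), 390 (only the groups compared) and 2932 (remaining).

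Values that changed sign were uncalled before and after. TI-KM against TI-K primaries: Igf2r -0.043 (common median), -0.051 (title number 76 averaged), -0.043 (inferred sex), -0.093 (block) and -0.12 (remaining arrays); Plagl1 0.22 (no _x_at or _s_at) and 0.041 (block); H19/Mir675 0.21 (block) and 0.26 (remaining); Grb10 0.055 (block) and 0.052 (remaining). Recurrence against TI-KM: Igf2r 0.053 (title number 76), 0.095 (3'/5') and 0.0072 (sex); Grb10 -0.088 (3'/5'); Plagl1 -0.27 (no _x_at or _s_at) and -0.0095 (high-18S arrays); H19/Mir675 -0.051 (remaining). Recurrence against TI-K: Igf2r -0.10 (common median), -0.036 (sex), -0.24 (block) and -0.15 (remaining); Plagl1 -0.052 (no _x_at or _s_at); Mest 0.013 (3'/5'); Grb10 0.56 (block) and 0.57 (remaining). Against normal lung, Plagl1 was 0.062 in TI-K and 0.28 in TI-KM primaries (no _x_at or _s_at) and -0.20 in recurrences (high-18S arrays). H19/Mir675 was -0.017 (offset of 5), -0.11 (sex) and -0.44 (remaining) in TI-KM primaries, -0.70 in TI-K primaries and -0.50 in recurrences (remaining). Igf2r was -0.088 in TI-KM primaries and -0.13 in recurrences, and Kcnq1ot1 -0.25 in recurrences (remaining).

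With single arrays left out, TI-KM against TI-K ranged from -0.53 to 0.49 for H19, -0.35 to 0.26 for Igf2, -0.082 to 0.082 for Igf2r, -0.037 to 0.15 for Mest and -0.17 to 0.017 for Plagl1. Recurrence against TI-K ranged from -0.15 to 0.96 for H19, -0.10 to 0.11 for Igf2r and -0.15 to 0.12 for Mest, and recurrence against TI-KM from -0.11 to 0.11 for Igf2r and -0.20 to 0.077 for Mest. Against normal lung the ranges were -0.45 to 0.075 for Airn and -0.44 to 0.58 for H19 in TI-K primaries, -0.19 to 0.21 for H19 in TI-KM primaries, and -0.065 to 0.083 for Kcnq1ot1 and -0.067 to 0.39 for Plagl1 in recurrences. Within the remaining TI-KM primaries r turned to -0.37 for H19 with Igf2 and to -0.73 for Cdkn1c with Kcnq1ot1 (exact permutation adjusted p = 0.36 and 0.157). No locus pair turned with the offset of 5.

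Mest stayed lower than in normal lung under every alternative, by -1.27 to -2.24, and lost its call only in recurrences, with only the groups compared and with the 3'/5' ratio. A spread from 1 normal array, 9 of 30 probe sets that did not pass the filter on low signals, and sets that follow genotype limit these results.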
